A study of Mus musculus with 6 samples.

Results

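The genes described here encode the nuclear subunits and assembly factors of the last part of the respiratory chain and of ATP synthase. They were taken by name from the count table of a study of mouse heart ageing, as all gene models whose symbol begins with Uqcr, Uqcc, Cox plus a digit, or Atp5, together with Cyc1 and Cycs. The rule found 57 genes among 43629 named gene models, after 4 processed copies with -ps in their name were left out. Of the 57 genes, 12 belong to complex III (9 subunits and the assembly factors Uqcc1, Uqcc2 and Uqcc3) and 27 to complex IV (17 subunits, 9 assembly factors and the supercomplex factor Cox7a2l). A further 17 carry ATP synthase names (15 subunits, Atp5s and Atp5sl), and Cycs encodes cytochrome c. Hearts came from male C57BL/6 mice, 3 old mice aged 22 months and 3 young mice aged 2 months, kept on normal chow with no other treatment named. Each library is a separate biological replicate, sequenced in bulk. The labels give heart tissue as the source, while their extraction text speaks of NRVMs, and no label says which chambers of the heart were taken.

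Complex III passes electrons from ubiquinol to cytochrome c through cytochrome b, cytochrome c1 and the Rieske iron-sulfur protein. Cytochrome c carries them to complex IV, cytochrome c oxidase, which reduces oxygen to water. ATP synthase uses the proton gradient that these complexes build: protons turn a membrane ring of c subunits, and the central stalk drives the catalytic F1 head. Most subunits are encoded in the nucleus and a few in mitochondrial DNA, and assembly factors insert haem and copper into complex IV. The heart depends on this chain for nearly all of its ATP, and several complex IV subunits have a separate isoform in heart and skeletal muscle.

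The libraries held 13673856 to 15583364 counts in old hearts and 15105508 to 15497344 in young hearts. Replicates were less alike among old hearts, with Pearson's r of log2 CPM (counts scaled to a common library size) of 0.954 to 0.975 across genes, against 0.982 to 0.986 among young hearts. The tissue label fits the cardiomyocyte markers, of which Myh6, the alpha myosin heavy chain, had 11630 to 14670 CPM in old hearts and 21420 to 24710 CPM in young hearts. The summed level of 10 cardiomyocyte markers was 53210 to 59330 CPM in old hearts and 61530 to 69320 CPM in young hearts. Myh6 was the largest item of that sum in each heart. In the test described below 3 of the 10 were lower in old hearts (Myh6, Actc1 and Pln) and 1 was higher (Myl2), beside 6.36% and 8.72% of all tested genes. Log2 fold changes (old over young) were below 0 for 5 of the 10 and above 0 for 5, with a median of -0.06. Of the other lists, 3 of 8 endothelial markers were lower, with a sum of 1107 to 1259 CPM in old and 1481 to 1607 CPM in young hearts. Egfl7 was the 1 endothelial marker with a log2 fold change above 0 (0.37), and it was not called. Among 7 macrophage markers 3 were higher, with a sum of 356 to 479 CPM in old and 226 to 281 CPM in young hearts. Kcnj8 and Abcc9 were lower among 7 smooth muscle and pericyte markers, which summed to 744 to 1158 CPM in old and 1111 to 1343 CPM in young hearts. Log2 fold changes (old over young) were below 0 for 4 of the 7 and above 0 for 3. Those 3 were Acta2, Myh11 and Tagln, at 0.51, 0.60 and 1.035, and none of them was called. Col1a1 was lower among 8 fibroblast markers, which summed to 564 to 1332 CPM in old and 868 to 1177 CPM in young hearts. Alas2 was lower among 5 erythroid markers, which summed to 455, 467 and 1215 CPM in old hearts, against 928 to 981 CPM in young hearts. Acta1 and Ckm were lower among 4 tested skeletal muscle markers, while Myh2 and Myh4 were at 0. The other 2 tested, Mylpf and Tnnt3, had log2 fold changes above 0 (1.264 and 0.22) and were not called. The 4 tested atrial markers were not called, yet their list summed to 309 CPM in old replicate 1, against 22.2 and 84.4 CPM in the other old hearts and 49.0 to 126 CPM in young hearts. In bulk tissue fewer cells of a type cannot be told apart from less RNA per cell, and the part of these shifts in the results below was not tested.

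Old and young hearts were compared to find which genes of these complexes differ in mRNA with age, by complex and by subunit or assembly factor. All 14413 genes with enough counts entered 1 fit, edgeR's quasi-likelihood test on the deposited counts, with Benjamini-Hochberg adjustment over all of them and a threshold of 0.05. In that fit 15.1% of all tested genes were called, 6.36% lower and 8.72% higher in old hearts. Of the 57 genes 55 could be tested. Lower in old hearts were 10 of the 55, or 18.2%, namely Uqcrc2, Cyc1, Uqcrfs1, Uqcc1, Cycs, Cox5a, Cox11, Cox15, Atp5g1 and Atp5a1. The single gene called higher was the copper-handling factor Cox19, which makes 1.82%. The calls did not move the set as a whole: the median log2 fold change (old over young) of the 55 genes was -0.02, with 29 below and 26 above 0, and that of all tested genes was 0.02. Subunits and assembly factors were both among the calls, with 6 of 39 tested subunits lower and none higher, and 3 of 12 assembly factors lower and 1 higher. All 3 old hearts lay below all 3 young hearts for 20 of the 55 genes and above them for 7, against 18.4% and 18.8% of all tested genes (37.3% in either direction). A further 12 genes had an unadjusted p under 0.05 without being called, and the nearest to the threshold was the core subunit Uqcrc1.

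**Figure D1:**
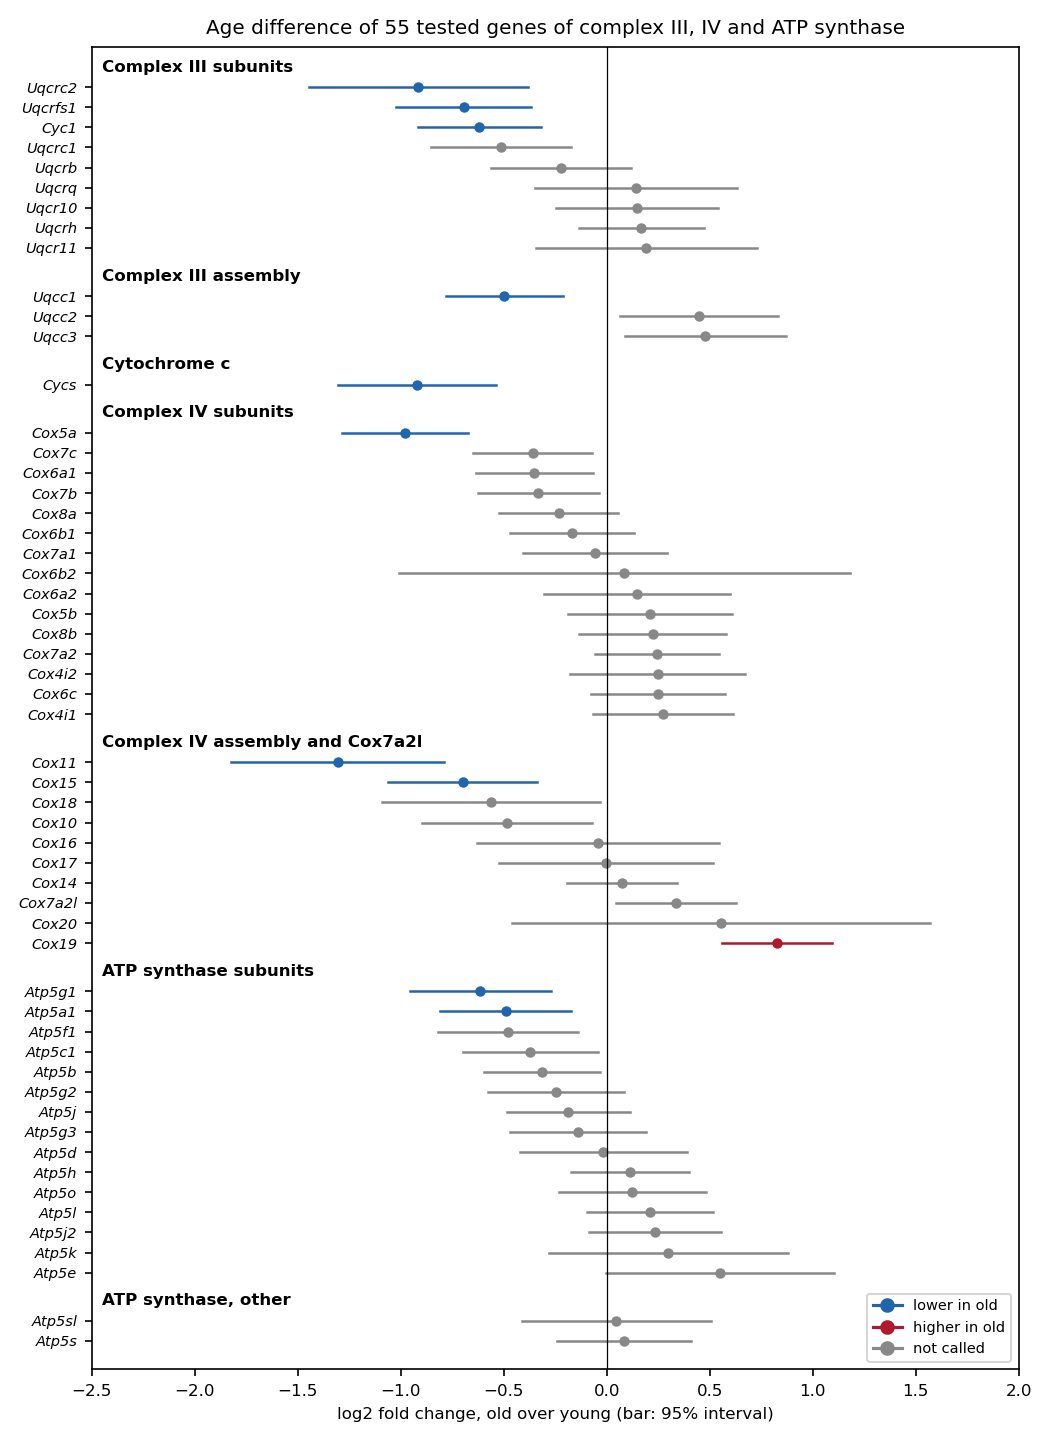
Log2 fold change of each of the 55 tested genes (horizontal axis, old over young hearts) with its 95% interval from the fit over all genes, grouped by complex and by subunit or assembly factor (3 old and 3 young hearts). Blue marks the 10 genes called lower in old hearts, red the 1 called higher (Cox19) and grey the genes not called, and in complex III the called subunits are Uqcrc2, Uqcrfs1 and Cyc1.

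How firmly the calls held differed between genes. Cox11, Cox5a and Cox19 were called with any 1 library left out, and Cycs in all but the fit without young replicate 1, where its adjusted p in edgeR's quasi-likelihood test was 0.056. Cyc1, Uqcrfs1, Atp5g1 and Uqcc1 were not called without old replicate 3 or without any 1 of the 3 young replicates, with adjusted p-values of up to 0.0887, 0.0812, 0.109 and 0.142 in that order. Uqcrc2 and Cox15 were also not called without old replicate 2, with adjusted p-values of up to 0.115 and 0.104. Atp5a1 stayed called only without old replicate 1, and its adjusted p otherwise reached 0.171. The direction was the same in each of these fits for each of the 11 genes. Old replicate 1 held back many calls, in the set and over all genes alike. Without it 19 of the 55 genes were lower and 10 were higher in the remaining old hearts. Of all 14702 genes tested in that fit 2609 were lower and 2961 higher, against 917 and 1257 of 14413 with it. Without old replicate 2, 9 of the 55 genes were lower, without old replicate 3 there were 3, and without young replicate 1, 2 or 3 there were 2, 3 and 3. Over all tested genes the calls of lower genes fell as well, to 603 and 321 without old replicates 2 and 3, and to 184, 190 and 226 without young replicates 1, 2 and 3.

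The subunits of complex III that were called are large ones that carry redox centres or form the matrix core. Uqcrc2, core protein 2, at chr7:120635176-120659524 (GRCm38, gene limits in GENCODE M21 here and below), had 497, 272 and 259.6 CPM in old hearts, against 684, 600.0 and 657 CPM in young hearts. Old replicate 1 stood well above the other old hearts, yet all 3 lay below every young heart. Uqcrc2 averaged 343 ± 134 CPM in old and 647 ± 42.6 CPM in young hearts (SD, n = 3 each), 46.9% lower by a log2 fold change of -0.91 (SE 0.24; edgeR quasi-likelihood test, adjusted p = 0.0319). Pdzd9, on the other strand, shares 19.7% of the exon bases of Uqcrc2, but had under 0.1 CPM in both ages. Cyc1 encodes cytochrome c1, the haem protein that hands electrons to cytochrome c, lies at chr15:76343523-76346260 and had 636, 742 and 639.9 CPM in old hearts, against 1108, 996 and 995 CPM in young hearts. Its groups did not overlap, and its mean was 34.9% lower in old hearts (log2 fold change -0.62, SE 0.13; edgeR adjusted p = 0.0164). Uqcrfs1, the Rieske iron-sulfur protein at chr13:30540308-30545362, had 649.7, 505 and 504 CPM in old hearts, against 954, 856 and 876 CPM in young hearts. It was 38.2% lower in old hearts (log2 fold change -0.69, SE 0.15; edgeR adjusted p = 0.0155). The other core protein, Uqcrc1, had 1016, 1370 and 1155 CPM in old hearts, against 1848, 1574 and 1626 CPM in young hearts, so its groups did not overlap either. Its log2 fold change of -0.51 (SE 0.15) came just outside the threshold, with an edgeR adjusted p of 0.05 after rounding. It was called lower in 9 of 19 alternatives, among them DESeq2 and limma-voom, and without old replicate 1 or old replicate 2. The 4 genes together summed to 2799, 2889 and 2558 CPM in old hearts, against 4593, 4026 and 4152 CPM in young hearts.

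Of the 5 small subunits of complex III none was called. Their log2 fold changes ran from -0.22 for Uqcrb to 0.19 for Uqcr11, with a median of 0.15, and the median of the 4 large subunits was -0.66. The difference between small and large subunits was not tested. Uqcr11, the uncalled gene of complex III with the highest level per length, had a mean of 1167 FPKM in old hearts and 1024 FPKM in young hearts (fragments scaled to library size and transcript length, as the authors deposited them). Its CPM were 504, 1091 and 748 in old hearts, against 684, 719 and 649 in young hearts, so that the old hearts spread on both sides of the young ones. The small subunits summed to 2912, 4629 and 3452 CPM in old hearts, against 3519, 3352 and 3291 CPM in young hearts. The lowest and the highest of these sums were both old hearts, replicates 1 and 2.

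**Figure D2:**
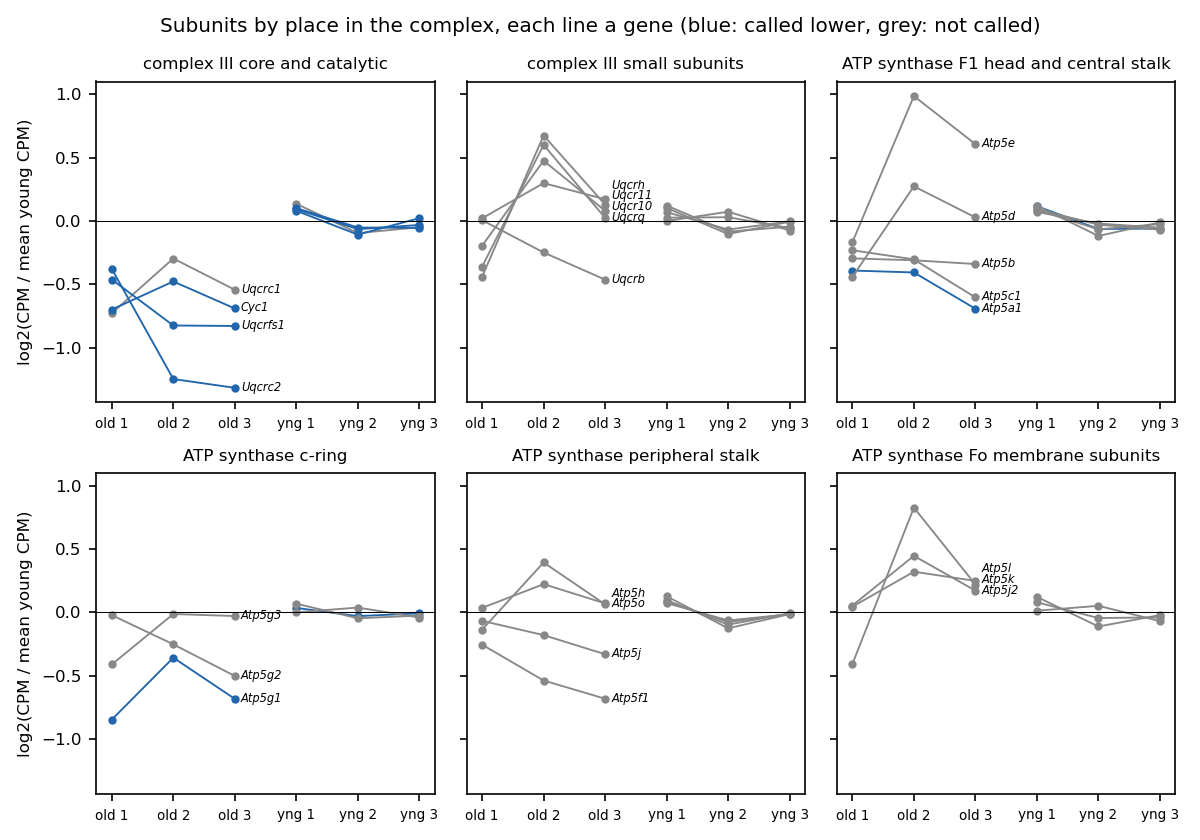
Subunits of complex III and ATP synthase by their place in the complex, each line a gene, as log2 of its CPM over its mean in young hearts (vertical axis) in old hearts 1 to 3 and young hearts 1 to 3 (horizontal axis). Lines only tie the values of 1 gene together, since replicates have no order. The 4 large subunits of complex III lie below 0 in all 3 old hearts, while the membrane subunits of ATP synthase and the small subunits of complex III other than Uqcrb have their highest old value in old heart 2, and Uqcrc2 and Uqcrb in old heart 1.

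The assembly factors of complex III moved in different directions. Uqcc1, which acts in cytochrome b synthesis and assembly and lies at chr2:155846894-155930310, had 70.0, 69.2 and 60.6 CPM in old hearts, against 102, 91.2 and 88.8 CPM in young hearts. It was 29.2% lower in old hearts (log2 fold change -0.50, SE 0.13; edgeR adjusted p = 0.0306). Uqcc2, its partner in the same step, had 106, 160.2 and 109.6 CPM in old hearts, against 90.7, 91.9 and 92.9 CPM in young hearts. Uqcc3, which acts after them, had 56.9, 93.4 and 76.7 CPM in old hearts, against 55.7, 52.8 and 54.3 CPM in young hearts. Both lay above every young heart in all 3 old hearts, with log2 fold changes of 0.45 and 0.48, but neither was called (edgeR adjusted p = 0.105 and 0.093). Without old replicate 1 both were among the genes called higher.

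Cycs, the soluble carrier between complex III and complex IV, was among the genes that fell most. It lies at chr6:50562563-50566538 and had 349, 242 and 236 CPM in old hearts, against 551, 496 and 519 CPM in young hearts. Old replicate 1 was the highest old heart, as for Uqcrc2 and Uqcrfs1, and still lay below the lowest young heart. The mean was 275 ± 63.5 CPM in old and 522 ± 27.7 CPM in young hearts, 47.2% lower (log2 fold change -0.92, SE 0.17; edgeR adjusted p = 0.0098). The enzyme that attaches haem to cytochromes c and c1, encoded by Hccs, had 20.4, 14.2 and 15.9 CPM in old hearts and 26.8, 28.2 and 33.0 CPM in young hearts. It was called lower too (log2 fold change -0.80, SE 0.17; edgeR adjusted p = 0.0149). Mouse Cycs has many processed copies in the genome, and how reads that match several places were counted is not given in the sources used here.

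Cycs and Uqcrfs1 shared a sequence near their start that the choice of genes did not use. Of 41 tested genes of the set with a promoter in the RefSeq table (build GRCm38.p6, 250 bases before the gene's start), these 2 held the palindrome TGACGTCA, the binding sequence of CREB factors, and both were lower in old hearts. Each is shown 5′ to 3′ on the gene's strand as the 30 bases around it, with the palindrome in capitals, from chr6:50566720-50566749 (minus strand) for Cycs and chr13:30545327-30545356 (minus strand) for Uqcrfs1.
Cycs: aggccagagggTGACGTCAcgcacgtccac
Uqcrfs1: cggcgtcgcgcTGACGTCAcaaaccctgcg
The palindrome begins 169 bases before the RefSeq start of Cycs and 29 bases before that of Uqcrfs1. GENCODE M21 places the Uqcrfs1 stretch within the first exon of that gene, whose start lies further out, and the Cycs stretch upstream of Cycs within an exon of the antisense gene 5430402O13Rik. It was in 4.88% of the 41 promoters and in 1.77% of the 27025 promoters of all genes. Windows for 7 of the 10 genes lower in old hearts were in the table. None of the 7 held the NRF1 motif, the GABPA motif CCGGAAGT, the YY1 motif or AAGGTCA, which oestrogen-related receptors bind, each searched as exact letters on both strands, with any overlap between motifs left in. Among all 41 windows these were found in 6, 5, 1 and 3, which is 14.6%, 12.2%, 2.44% and 7.32%, against 4.23%, 3.23%, 0.359% and 4.7% of all promoters. GGGCGG, bound by SP1, was in 3 of the 7 and in 36.6% of the 41, against 35.4% of all promoters. A match is a run of letters and was not tested as a binding site.

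Cox5a was the 1 subunit called among the 15 tested of complex IV, beside 6.36% of all tested genes called lower and 8.72% called higher. It encodes subunit 5A, on the matrix side of the enzyme, lies at chr9:57521274-57532426 and had 238, 210.4 and 231 CPM in old hearts, against 497, 404 and 439.7 CPM in young hearts. The old hearts were close together, and all of them lay far below the lowest young heart. The mean was 49.3% lower in old hearts (log2 fold change -0.98, SE 0.14; edgeR adjusted p = 0.00338). Of the remaining 14 tested subunits none was called, and their log2 fold changes ran from -0.36 for Cox7c to 0.27 for Cox4i1. The median over the 15 tested subunits was 0.08, the value of the testis isoform Cox6b2 at about 2 CPM. That median has no firm sign, since it was below 0 in 7 of 19 alternatives (down to -0.23) and came to 0.29 without old replicate 1 and -0.072 without old replicate 2. Cox5b, the other subunit 5, had 818, 1331 and 1065 CPM in old hearts, against 954, 931 and 898 CPM in young hearts, with no separation of the ages. Cox7c, Cox6a1 and Cox7b lay below every young heart in all 3 old hearts, with log2 fold changes of -0.36, -0.35 and -0.33 and edgeR adjusted p-values of 0.0891, 0.0886 and 0.113. Cox8a also lay below (-0.23), while Cox7a2 and Cox4i1 lay above every young heart in all 3 old hearts (0.24 and 0.27). With Cox5a, 5 of the 15 tested subunits lay below and 2 above, against 18.4% and 18.8% of all tested genes. Without old replicate 1 Cox7c, Cox6a1 and Cox7b were called lower, and Cox5b, Cox6c, Cox7a2 and Cox4i2 were called higher. The testis isoforms Cox7b2 (0 to 5 counts a library) and Cox8c (0 counts) were too low to test. Summed over all subunits, complex IV reached 10590, 13960 and 11400 CPM in old hearts, against 12080, 11000 and 11260 CPM in young hearts, so old replicates 1 and 2 bracketed all other hearts.

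The promoter of Cox5a is shown because this subunit had the lowest adjusted p among the genes that fell. The 250 bases before its RefSeq start, chr9:57520982-57521231 (plus strand, GRCm38.p6), read as follows, with the 1 motif found in capitals, GGGCGG on the opposite strand, 13 bases before the start.
Cox5a: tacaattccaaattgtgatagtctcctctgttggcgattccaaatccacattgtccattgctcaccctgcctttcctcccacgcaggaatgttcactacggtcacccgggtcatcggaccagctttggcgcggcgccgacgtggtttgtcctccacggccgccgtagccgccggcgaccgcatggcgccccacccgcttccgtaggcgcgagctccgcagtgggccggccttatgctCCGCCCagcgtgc

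**Figure D3:**
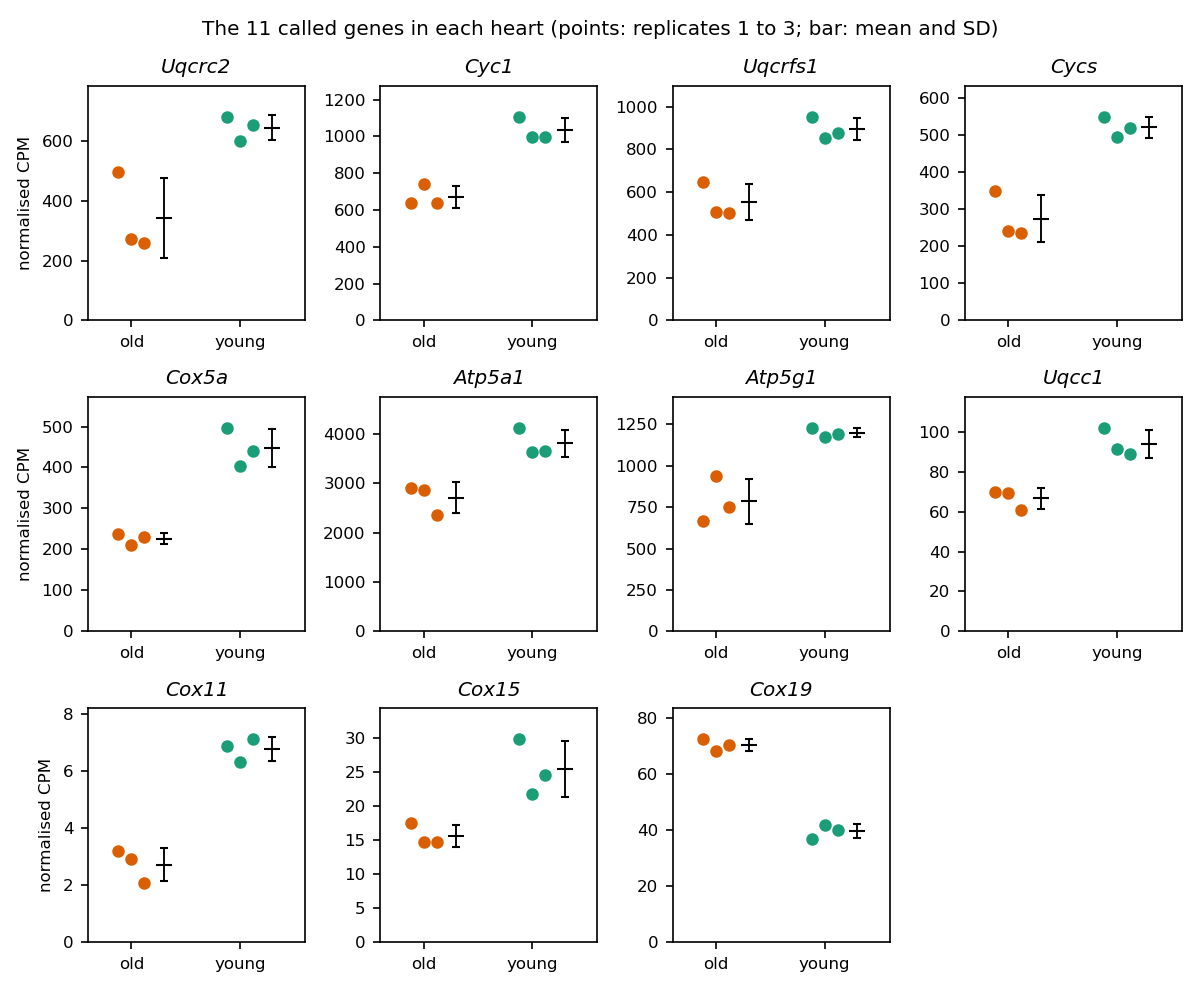
Normalised CPM (vertical axes, from 0) of the 11 called genes in each of 3 old hearts (left, orange) and 3 young hearts (right, green), with the mean and SD beside the points. The ages do not overlap in any of the 11 panels, and old hearts lie lower in all but Cox19, where they have 68.2 to 72.6 CPM, against 37.0 to 42.0 CPM in young hearts.

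Heart and skeletal muscle make their own isoforms of subunits 6A, 7A and 8, encoded by Cox6a2, Cox7a1 and Cox8b, beside the ubiquitous Cox6a1, Cox7a2 and Cox8a. The muscle isoforms led at both ages. Within a heart, the FPKM of Cox6a2 exceeded that of Cox6a1 by 16.5, 27.4 and 23.0 times in old hearts, and by 16.7, 13.9 and 17.3 times in young hearts. Old replicate 1 lay among the young hearts and the other old hearts above them. The log2 CPM ratio was 0.46 higher in old hearts, which an exact two-sided permutation test did not separate (p = 0.3), and the difference came to 0.29 without old replicate 2. For Cox8b over Cox8a the FPKM ratio was 10.2, 11.8 and 9.72 in old hearts, against 7.56, 7.81 and 7.93 in young hearts, without overlap. Its log2 CPM ratio was 0.44 higher in old hearts (exact two-sided permutation p = 0.1, adjusted 0.267 over 8 pairs), and 0.1 is the smallest p that 3 against 3 hearts allow. For Cox7a1 over Cox7a2 the FPKM ratio was 4.46, 2.92 and 2.82 in old hearts, against 4.13, 4.09 and 4.17 in young hearts. Here old replicate 1 lay above and the other old hearts below the tight young values (log2 difference -0.31, exact permutation p = 0.4). The difference came to -0.52 without old replicate 1 and -0.19 without old replicate 3. The 3 ratios thus pointed in different directions, and none of the 6 genes was called. Cox6a2, the uncalled complex IV gene with the highest level per length, averaged 2936 FPKM in old and 2659 FPKM in young hearts, and its CPM were 1440, 2580 and 2033 in old hearts, against 1987, 1693 and 1790 in young hearts. Cox7a1 had 969.5, 792 and 677 CPM in old hearts, against 895, 807 and 837 CPM in young hearts. Cox8b had 904, 1235 and 869 CPM in old hearts, against 875, 869.9 and 833 CPM in young hearts. The ages of these muscle isoforms overlapped, and those of the ubiquitous ones did not, though by narrow margins for Cox8a and Cox7a2. Such separation in either direction was found for 37.3% of all tested genes. Cox6a1 had 93.0 to 100.4 CPM in old and 110.3 to 130.2 CPM in young hearts. Cox8a had 133.0 to 157.7 CPM in old and 158.2 to 174.1 CPM in young hearts. Cox7a2 lay higher, with 450.0 to 561.6 CPM in old and 409.1 to 448.6 CPM in young hearts. The second isoforms of subunits 4 and 6B stayed far below the first: Cox4i2, known from lung and hypoxia, had 0.00922, 0.00941 and 0.0137 of the FPKM of Cox4i1 in old hearts, and 0.0114, 0.0108 and 0.0103 in young hearts. The testis isoform Cox6b2 had 0.000695 to 0.00258 of the FPKM of Cox6b1 in old hearts, and 0.00123 to 0.00142 in young hearts. Both ratios overlapped between the ages (exact permutation p = 1.0 for Cox4i2 and 0.9 for Cox6b2).

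**Figure D4:**
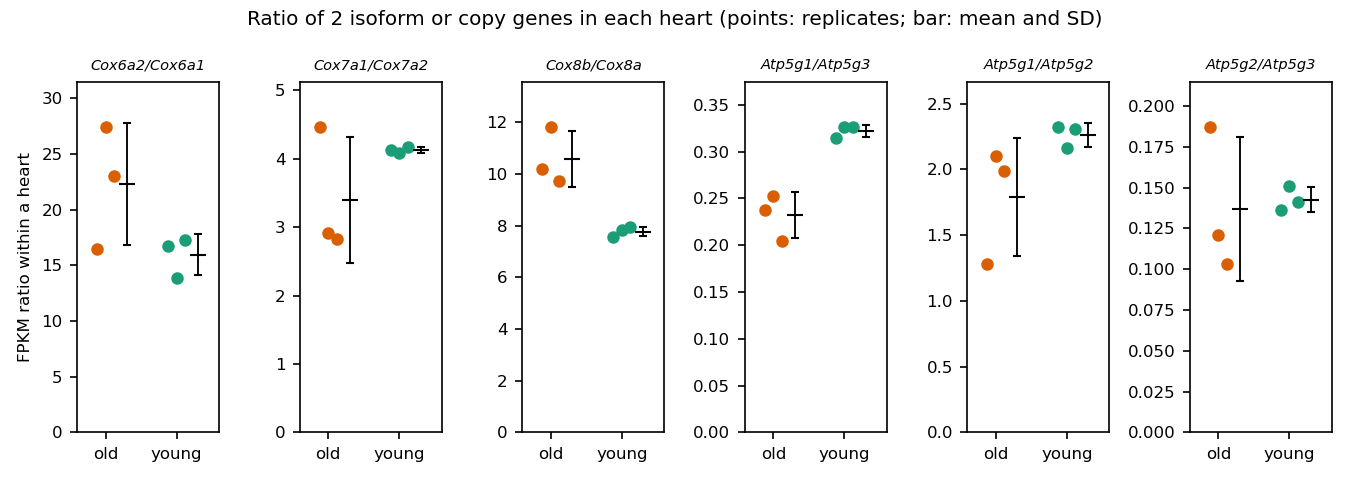
Ratio of the deposited FPKM of 2 genes within each heart (vertical axes, from 0) for 3 old hearts (left) and 3 young hearts (right), with mean and SD, for the muscle over the ubiquitous isoforms of complex IV subunits 6A, 7A and 8 and for pairs of the 3 c-ring genes of ATP synthase. The ages separate for Cox8b over Cox8a, for Atp5g1 over Atp5g3 and for Atp5g1 over Atp5g2, and overlap in the other 3 panels.

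The assembly factors of complex IV held both the lowest and the highest log2 fold change of the set, those of Cox11 and Cox19. Cox11, which delivers copper to subunit COX1 and lies at chr11:90638173-90644931, had 3.19, 2.91 and 2.08 CPM in old hearts, against 6.87, 6.31 and 7.15 CPM in young hearts. These values rest on 52, 41 and 28 counts in old hearts and 100, 93 and 111 counts in young hearts. Cox11 was 59.6% lower in old hearts (log2 fold change -1.31, SE 0.23; edgeR adjusted p = 0.00813). Tom1l1, on the opposite strand, shares 48.3% of the exon bases of Cox11 and averaged 9.05 CPM in old and 13.8 CPM in young hearts. Whether the counting used strand is not given in the sources used here, so reads of the overlap cannot be told apart. Cox19, a partner in copper handling known from yeast to bind Cox11, was the one gene of the set called higher. It lies at chr5:139336189-139351418 and had 72.6, 68.2 and 70.4 CPM in old hearts, against 37.0, 42.0 and 40.1 CPM in young hearts. The ages were far apart, at 1.77 times the young level (log2 fold change 0.83, SE 0.12; edgeR adjusted p = 0.00364). Cox17, the copper chaperone of the same pathway, overlapped between the ages (log2 fold change -0.0045, 95% interval -0.52 to 0.52).

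The 2 enzymes of haem A synthesis both lay lower in old hearts, and 1 was called. Cox15, which oxidises haem O to haem A and lies at chr19:43733254-43753000, had 17.5, 14.7 and 14.8 CPM in old hearts, against 29.9, 21.8 and 24.5 CPM in young hearts. It was 38.4% lower in old hearts (log2 fold change -0.70, SE 0.16; edgeR adjusted p = 0.0214), and Entpd7 on the other strand shares 9.04% of its exon bases. Cox10, the farnesyltransferase before it, had 26.4, 44.0 and 35.3 CPM in old hearts, against 54.3, 47.1 and 46.2 CPM in young hearts, without overlap but also without a call (log2 fold change -0.48; edgeR adjusted p = 0.104), though it was called lower without old replicate 2. Of the 4 factors that handle subunits COX1 and COX2, Cox14, Cox16, Cox18 and Cox20, none was called, and their log2 fold changes ran from -0.56 to 0.55. Cox16 and Cox20 share 56.8% and 91.1% of their exon bases with Gm20498 and Hnrnpu, so their counts are uncertain. Cox7a2l is known as a factor that joins complexes III and IV into supercomplexes, and its function in these hearts was not tested. It had 285, 339 and 304 CPM in old hearts, against 257, 247 and 230.4 CPM in young hearts. All old hearts lay above all young hearts, but the gene was not called (log2 fold change 0.34, SE 0.13; edgeR adjusted p = 0.108), except without old replicate 1, with an adjusted p of 0.0169.

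In ATP synthase 2 of 15 subunits were lower in old hearts and none was higher, beside 6.36% and 8.72% of all tested genes. The ages separated for 5 of the 15, all of them lower in old hearts. Over all tested genes 18.4% separated with old hearts lower and 18.8% with old hearts higher (37.3% in either direction). Atp5a1, the alpha subunit of the F1 head, at chr18:77773729-77782869, had 2903, 2873 and 2356 CPM in old hearts, against 4128, 3643 and 3653 CPM in young hearts. It was 28.8% lower in old hearts (log2 fold change -0.49, SE 0.14; edgeR adjusted p = 0.0461), close to the threshold. Atp5b, the catalytic beta subunit and the uncalled ATP synthase gene with the highest level per length, averaged 962 FPKM in old and 1202 FPKM in young hearts. Its CPM were 4323, 4279 and 4192 in old hearts, against 5658, 5198 and 5062 in young hearts, a separation with a log2 fold change of -0.32 that was not called (edgeR adjusted p = 0.118). Of the central stalk, Atp5c1 (gamma) had a log2 fold change of -0.37, Atp5d (delta) of -0.02 and Atp5e (epsilon) of 0.55. Atp5e, with the highest log2 fold change of the subunits, had 621, 1381 and 1062 CPM in old hearts, against 733, 688 and 673 CPM in young hearts, so old replicate 1 lay below and the other old hearts above the young ones. Log2 fold changes of the F1 head and central stalk together ran from -0.49 for Atp5a1 to 0.55 for Atp5e. The upper end is uncertain, since Atp5e was not called and its interval in the fit ran from -0.002 to 1.10. In the peripheral stalk Atp5f1 (subunit b) had 804, 661 and 598 CPM in old hearts, against 1047, 879 and 949.8 CPM in young hearts. Its log2 fold change was -0.48 with an edgeR adjusted p of 0.0619, and Atp5j, Atp5h and Atp5o of the same stalk had values between -0.19 and 0.12. The 3 membrane subunits Atp5j2, Atp5l and Atp5k had log2 fold changes of 0.23, 0.21 and 0.30 and overlapped between the ages. Without old replicate 1 Atp5e and Atp5k were called higher, and Atp5c1, Atp5f1 and Atp5g2 lower. Atp5s (factor B) and Atp5sl, known from complex I assembly in spite of its name, had 0.08 and 0.05.

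The c-ring is encoded by 3 genes, Atp5g1, Atp5g2 and Atp5g3, whose mature proteins are the same. Atp5g1, at chr11:96068852-96075670, had 668, 938 and 749 CPM in old hearts, against 1231, 1177 and 1195 CPM in young hearts. It was 34.6% lower in old hearts (log2 fold change -0.61, SE 0.15; edgeR adjusted p = 0.0278). Atp5g3, the main copy, had 1246, 1642 and 1624 CPM in old hearts, against 1737, 1604 and 1628 CPM in young hearts. Atp5g2 had 179, 152 and 128 CPM in old hearts, against 181, 186 and 176 CPM in young hearts, and neither of these was called (log2 fold changes -0.14 and -0.24). Within a heart, Atp5g1 had 0.238, 0.253 and 0.205 of the FPKM of Atp5g3 in old hearts, against 0.315, 0.326 and 0.326 in young hearts, without overlap. The log2 CPM ratio of the pair was lower in old hearts by a difference of -0.48 (exact two-sided permutation p = 0.1, the smallest possible, adjusted 0.267 over 8 pairs), and that of Atp5g1 to Atp5g2 by -0.37 (exact permutation p = 0.1, adjusted 0.267), which came to -0.14 without old replicate 1. The ratio of Atp5g2 to Atp5g3 overlapped between the ages, with 0.187, 0.121 and 0.103 in old hearts and 0.136, 0.151 and 0.141 in young hearts. The summed c-ring genes had 2093, 2732 and 2500 CPM in old hearts, against 3150, 2966 and 2999 CPM in young hearts.

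Another 3 subunits or regulators of ATP synthase stand in the table under older names and were looked up by their RefSeq synonyms after the values were known. Atpif1, the inhibitor of ATP hydrolysis now called ATP5IF1, had 98.4, 118 and 122 CPM in old hearts, against 86.7, 87.4 and 84.1 CPM in young hearts. It lay above every young heart without being called (log2 fold change 0.39; edgeR adjusted p = 0.0715). Usmg5 and 2010107E04Rik, both small membrane subunits, had log2 fold changes of -0.28 and 0.30 and were not called.

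The same complexes hold 6 subunits encoded in mitochondrial DNA, and none of these was called. Together they took 11.7, 9.8 and 15.1% of all counts in old hearts, against 14.7, 15.7 and 14.6% in young hearts. The share averaged 12.2 ± 2.68% in old and 15.0 ± 0.603% in young hearts, with overlap (exact two-sided permutation p = 0.3). The nuclear genes took 3.55, 4.32 and 3.38% of counts in old hearts, against 4.13, 3.8 and 3.96% in young hearts (exact permutation p = 0.5). Old replicate 2 thus had the lowest mitochondrial and the highest nuclear share of the 6 hearts. mt-Cytb, the cytochrome b of complex III, had 35190, 31680 and 47810 CPM in old hearts, against 43670, 43320 and 40620 CPM in young hearts. mt-Co2, the largest difference of the 6, had 1808, 1995 and 2532 CPM in old hearts, against 2177, 4283 and 3949 CPM in young hearts (log2 fold change -0.72, SE 0.25; edgeR adjusted p = 0.078). Mitochondrial DNA has nuclear copies, so these counts also depend on the treatment of reads that match several places.

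Genes around the set gave a point of reference, to be read beside 6.36% of all tested genes called lower and 8.72% called higher. Of the 4 subunits of complex II, which feeds electrons from succinate, Sdha, Sdhc and Sdhd were lower in old hearts, with log2 fold changes of -0.78, -0.69 and -1.09 and edgeR adjusted p-values of 0.0244, 0.0315 and 0.00555. Of 36 nuclear subunits of complex I, Ndufa10, Ndufab1, Ndufb6 and Ndufc2 were lower and none was higher, with a list median of -0.03. Of 21 tested further genes listed as assembly factors of complex IV, 4 were lower and none was higher: Higd2a, Taco1, Hccs and Pnkd. Hccs is counted in this list although, as given above, its enzyme acts on cytochromes c and c1. Higd2a, a supercomplex factor, had 43.1, 43.6 and 41.0 CPM in old hearts, against 94.8, 84.5 and 80.5 CPM in young hearts. The median of the 21 genes was -0.26. Of 4 assembly factors of ATP synthase Atpaf1, which acts on the beta subunit, was lower (log2 fold change -0.67; edgeR adjusted p = 0.0383), and none of the 3 further assembly factors of complex III was called. Among 15 regulators of respiratory genes 1 was lower and 2 were higher. Ppargc1a, the coactivator PGC-1 alpha, had 36.0, 28.9 and 32.3 CPM in old hearts, against 73.3, 59.2 and 66.2 CPM in young hearts (log2 fold change -1.03, SE 0.14; edgeR adjusted p = 0.00315). Pprc1 and Gabpb1 were higher, by 0.51 and 0.79 on the log2 scale. Nrf1, Gabpa and Esrra were not called, at 0.29, -0.10 and -0.15. Esrrg, Esrrb and Tfam were not called either, at -0.60, -0.55 and -0.49 (edgeR adjusted p = 0.061, 0.081 and 0.0555). For each of these all 3 old hearts lay below every young heart. Of the 15 regulators 11 had log2 fold changes below 0 and 4 above, with a median of -0.14.

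Library spread and transcript length ran along with these differences. The old hearts differed more among themselves: the median SD of log2 CPM over the 55 genes was 0.225 in old and 0.0855 in young hearts, and it was larger in old hearts for 46 of the 55, or 83.6%, against 77.1% of all tested genes. The part of this spread in the results was not tested. Old replicate 2 was the highest old heart for 31 of the 55 genes, old replicate 1 for 22 and old replicate 3 for 2, while over all tested genes these shares were 33.3%, 40.4% and 26.4%. The differences also ran with the length of the transcripts. With total exon length in GENCODE M21, 8 of the 23 genes of 2000 bases or more were lower and 1 was higher in old hearts, with a median log2 fold change of -0.48. Over all tested genes of that length 786 of 11846 were lower and 982 higher, with a median of 0.01. Of 16 genes of the set under 1000 bases none was called, and their median was 0.17. Over all tested genes under 1000 bases 28 of 846 were lower and 101 higher, with a median of 0.15. With the length that the deposited FPKM values imply, Cox5a belonged to the short class (707 bases, against 2101) and Cyc1 to the middle one (1223 bases, against 2154), so that 1 of 18 short and 6 of 19 long genes were lower, against 31 of 1000 short and 693 of 9487 long genes over all tested. Spearman's rho between log2 fold change and exon length was -0.353 over the 55 genes and -0.0351 over 14322 genes, as a description across genes that share the same 6 libraries. With the trend on length and GC content removed in the fit, 13 of the 55 genes were lower, among them each of the 10, and 1116 of all tested genes, against 917 without that step.

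**Figure D5:**
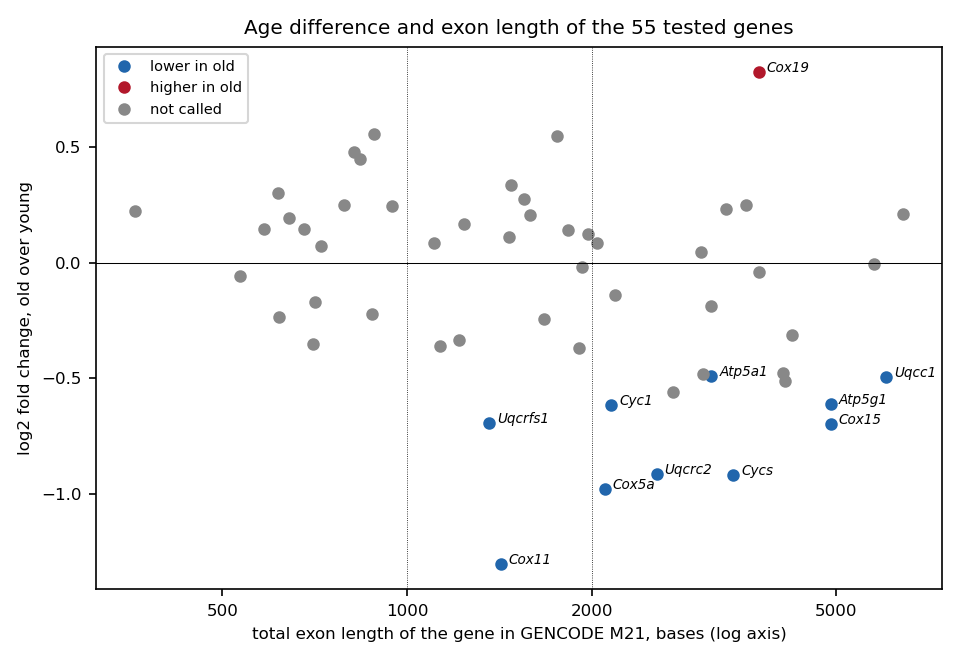
Log2 fold change (vertical axis, old over young hearts) against total exon length (horizontal log axis, bases) of the 55 tested genes, with dotted lines at 1000 and 2000 bases. Of the 10 genes lower in old hearts (blue) 8 lie at 2000 bases or more and none under 1000 bases, Cox19 is the single gene higher (red), and grey genes were not called.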

How the data were processed

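The authors deposited raw read counts per gene and a second table of FPKM values for 13170 genes. Per the submitters' processing notes HISAT2 and featureCounts from Subread were used on GRCm38.p6. No source used here gives versions, the strand setting, multi-mapping or the annotation release. The deposited FPKM values served for levels compared between genes. Of 44200 gene models, 571 without a name (0.295 to 0.369% of counts) were left out of library sizes and tests. Models were matched by identifier to GENCODE M21 for coordinates and lengths (42548 of 43629).

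Counts were fitted in edgeR 4.0.16 (R 4.3.3; filterByExpr, TMM, quasi-likelihood F test) over 3 old and 3 young libraries, with Benjamini-Hochberg adjustment over 14413 genes; the fit was tested on simulated data. CPM are deposited counts scaled by TMM library sizes, and SE is the absolute log2 fold change over the root of F. Isoform ratios used log2 of CPM plus 0.5 and an exact two-sided permutation test. Alternatives were other scalings and filters, DESeq2 1.42.0, limma 3.58.1 (voom, and trend on log2 FPKM plus 1 or 0.1), a replicate block, a trend on length and GC removed, the -ps copies added and each library left out. Same-numbered libraries did not deviate together. No 2 libraries differed by as little as sampling noise. Members and lists were chosen with earlier results of these data known. Named are every called gene, both genes of each isoform pair, Cycs, Cox7a2l, the inhibitor gene, the extremes and the uncalled gene of highest FPKM in each complex; the pair Cox7b2 and Cox7b was left out for counts near 0. Genes outside this rule, such as Cox5b, Hccs or Uqcc2, were named after their values were seen. Promoters are RefSeq's for GRCm38.p6.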

Additional observations from a re-analysis of the deposited data

How the results depend on the processing

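Across 19 alternatives no called gene changed direction; Cox11, Cox5a and Cox19 were called in each. Leaving out 1 library at a time moved the genes of the set called lower between 2 and 19, those called higher between 1 and 10, and over all genes those called lower between 184 and 2609 and higher between 350 and 2961. The highest counts came without old replicate 1 and the lowest without a young replicate. The median log2 fold change ran from -0.35 to -0.12 for complex III subunits, from -0.072 to 0.29 for complex IV subunits, from -0.19 to -0.023 for ATP synthase subunits, from -0.18 to 0.091 for assembly factors and from -0.17 to 0.023 for all 55 genes. The complex IV median was also below 0 in limma-voom (-0.073), with log2 of FPKM plus 1 and plus 0.1 (-0.059 and -0.078), with the block (-0.073), after removal of the trend on length and GC (-0.055) and with both (-0.23). In the other 13 settings 8 to 13 genes of the set were lower and 1 higher. Deviations from the age mean showed no pairing by replicate number (same-number correlations -0.0846, -0.0679 and 0.0247, different-number ones -0.0922 to 0.141). With 3 hearts an age, whose deviations sum to 0, this cannot exclude a pairing. With a replicate block 8 genes were lower and 1 higher, Atp5a1 and Uqcc1 losing their call, and 736 and 1038 of all genes were lower and higher.

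These uncalled genes and ratios changed sign between settings; the cause was not tested. With 1 library left out at a time, log2 fold changes ran from -0.73 to 0.44 for Cox6b2, -0.072 to 0.34 for Cox6a2, -0.13 to 0.42 for Uqcr11, -0.21 to 0.057 for Cox7a1, -0.60 to 0.31 for mt-Co3, -0.17 to 0.38 for mt-Atp6 and -1.02 to 0.14 for mt-Atp8. The log2 ratios ran from -0.22 to 0.053 for Cox4i2/Cox4i1, -0.32 to 0.39 for Cox6b2/Cox6b1 and -0.35 to 0.075 for Atp5g2/Atp5g3. Cox6b2 also turned to -0.18 in limma-voom, -0.059 and -0.17 with log2 of FPKM plus 1 and plus 0.1, -0.12 with the replicate block, -0.055 after removal of the trend on length and GC, and -0.23 with block and trend removal, and its ratio to Cox6b1 to -0.022 from FPKM. Block and trend removal together turned Cox6a2 to -0.000349 and Uqcr11 to -0.0086, and trend removal turned mt-Atp6 to -0.012.

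With 3 hearts an age, genes with few counts such as Cox20 (11 to 34 counts a library) had intervals of more than 1 log2 unit, and ratios could not reach an exact p under 0.1.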
